A study of Mus musculus with 12 samples.

Results

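The planar cell polarity (PCP) genes studied here are *Ror1*, *Ror2*, *Vangl1*, *Vangl2*, *Celsr1*, *Celsr2*, *Prickle1*, *Prickle2*, *Fat4* and *Dchs1*, 10 of the 36186 gene rows of the processed expression table. They were taken by gene symbol, and each matched 1 row. RNA-Seq had been run on 12 samples of mouse chondrocytes cut out by laser capture microdissection (LCM) from E15.5 forelimb zeugopods, the segment of the radius and ulna, in embryos of a mixed 129/CD-1 background. Wild type (WT) tissue was divided into resting, proliferative and hypertrophic compartments, with 3 libraries each. The labels call the last of these hyperproliferative, and it is called hypertrophic here, as in the study. The *aadd* mutant, with 3 libraries, is homozygous for frameshift mutations in *Hoxa9*, *Hoxa10*, *Hoxa11*, *Hoxd9*, *Hoxd10* and *Hoxd11*. Its label names the resting compartment, but the mutant element was small and uniform and all of its chondrocytes were captured together, so that genotype and extent of capture cannot be told apart. Some perichondrium, the sheath around the cartilage, was included in the captures.

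PCP is the alignment of cells within the plane of a tissue. In the growth cartilage it is needed for flattened proliferating chondrocytes to divide, intercalate and stack into columns parallel to the long axis of the bone. The receptors Ror1 and Ror2 bind Wnt5a. Of the core proteins, Vangl and Prickle sort to the cell face opposite that of Frizzled and Dishevelled, and Celsr bridges neighbouring cells. The giant cadherins Fat4 and Dchs1 bind each other across cell contacts and form a further polarity system. Values are NRPKM, RPKM (reads scaled to transcript length and library depth) that the authors normalized further between libraries.

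The summed level of 10 hypertrophic chondrocyte genes was 74.7 to 112 NRPKM in WT resting, 729 to 1020 in proliferative, 1950 to 3950 in hypertrophic and 49.1 to 82.1 in *aadd*. All 10 cartilage matrix genes of a second list were at 1 NRPKM or more in every library. Estimated depth was 1890000 to 3240000 reads. The 6 mutated Hox genes still gave transcripts, at 5.17 to 52.1 NRPKM in *aadd* against 4.34 to 30.5 in WT resting. These ranges pool the 6 genes, which were not compared 1 by 1. Hypertrophic replicate 1 had *Col10a1*, a marker of hypertrophy, at 264 NRPKM, but was far lower in *Mmp13*, at 3.05 against 735 and 661 in replicates 2 and 3, and in *Spp1*, at 24.1 against 1080 and 979. Other genes of the hypertrophic list were not so reduced, with *Ibsp* at 718 against 968 and 1330 and *Alpl* at 121 against 122 and 162. Replicate 1 also had the highest *Ihh*, *Panx3*, *Pth1r* and *Runx2* of its group. It stood apart from the other replicates, since its root mean square log2 difference from the proliferative mean was 0.712 and that from the mean of the other hypertrophic libraries was 1.029. Replicates 2 and 3 of the hypertrophic group also held more RNA of other cells, most clearly of endothelial and osteoclast genes. Summed over 10 markers each, endothelial genes were at 303 and 210 NRPKM there and at 5.24 to 38.9 in all other libraries. Osteoclast genes were at 1310 and 963 against 40.9 to 70.4. The macrophage sum was 286 and 231 against 13.4 to 45.2, mostly from *Cd68* (174 and 160) and *Csf1r* (56.7 and 49.6). *C1qa*, *C1qb*, *C1qc*, *Mrc1*, *Aif1* and *Fcgr1* were not above all other libraries in both. The perichondrium and fibroblast sum was 747 and 983 against 270 to 721. *Col1a2* (327 and 546), *Thy1*, *Cxcl12* and *Twist1* were above all other libraries, *Prrx1* (39.1 and 41.9) was below them, and the rest of that list was not set apart. The cartilage sum was 747 and 1090 NRPKM in these libraries and 2420 to 5170 in the other 10. Of the perichondrium and fibroblast list, *Pdgfra* (46.3 to 56.5 NRPKM), *Cxcl12* (8.03 to 9.87) and *Twist1* (5.95 to 10.2) were higher in all *aadd* than in all WT resting libraries. Those were at 30.6 to 37.5, 1.65 to 2.5 and 2.28 to 4.8. The other genes of the list overlapped between these groups, as did its sum (383 to 721 against 290 to 471). The part of perichondrial RNA in the differences between *aadd* and WT resting was not tested. In bulk tissue, fewer cells of a type and less RNA per cell cannot be told apart.

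The PCP genes did not move as 1 group. Going from resting to hypertrophic cartilage, both Ror receptors and *Prickle1* fell, *Fat4* and *Dchs1* had their lowest mean in the proliferative compartment (for *Dchs1* only with proliferative replicate 2), and neither *Vangl* gene met the criteria for a change in any comparison. In *aadd*, *Ror2* and *Prickle1* were lower than in WT resting, while *Fat4* and *Dchs1* were at nearly the same mean. Of the 10 genes, 7 passed the filter on low values (at least 5 NRPKM in at least 3 libraries) and were tested. *Celsr1*, *Celsr2* and *Prickle2* did not pass. With no filter, each of them met the criteria in at least 1 comparison, and only as higher, so that the direction of the calls below depends on the filter. *Ror1* passed only through the 3 resting libraries and 1 *aadd* library, so its own fall from resting to the other compartments was bound up with its selection and the counts below describe the genes that could be tested and are no support for a trend among all 10.

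**Figure D1:**
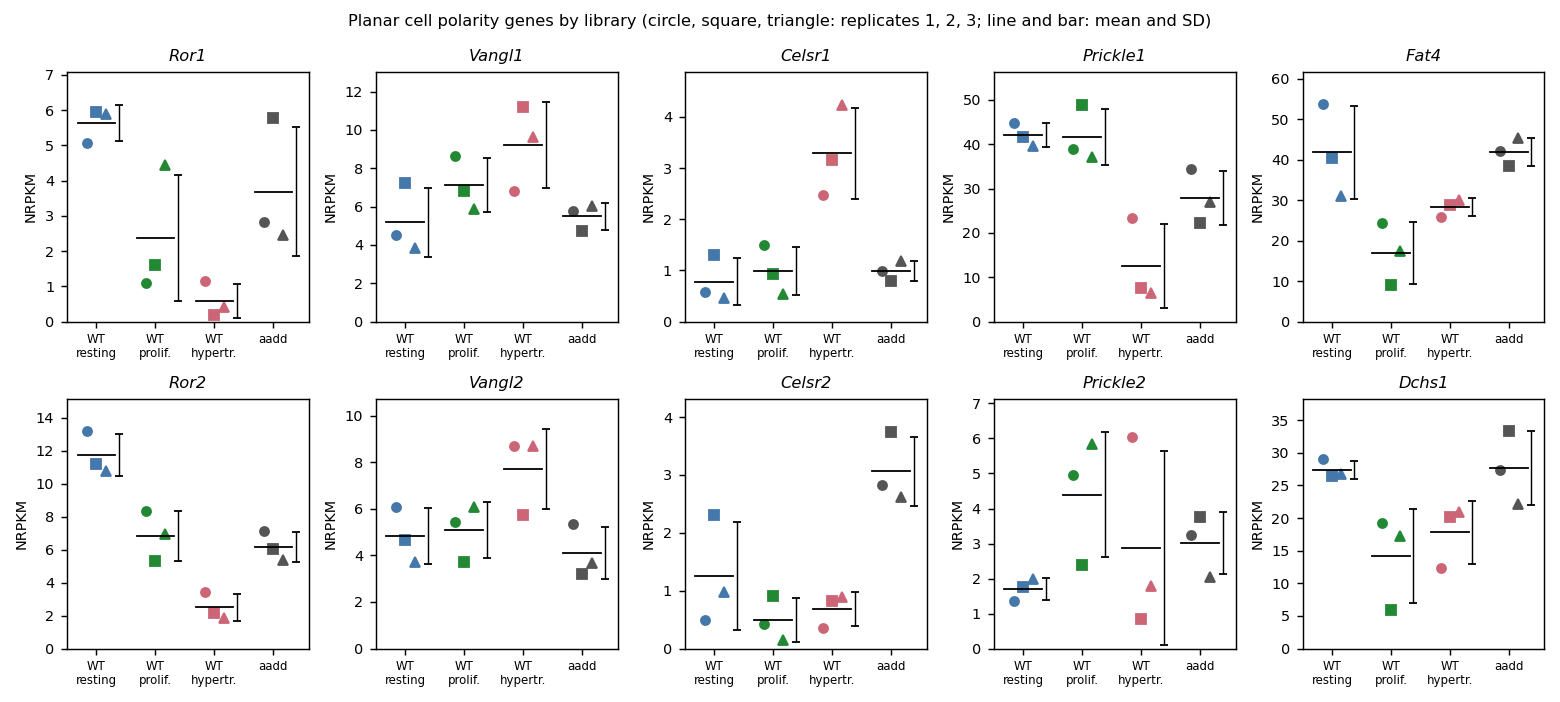
Expression of the 10 PCP genes in NRPKM (y axis, from 0) in the 12 libraries, by group (x axis). Each symbol is 1 library, horizontal lines are group means and bars are SD (n = 3). *Ror2* falls from 10.8 to 13.2 in WT resting to 1.86 to 3.44 in hypertrophic, whereas *Celsr1* is highest in hypertrophic libraries at 2.47 to 4.24.

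Each pair of groups was compared with limma over all 10936 genes that passed the filter, and the criteria of the study were applied (*P* up to 0.05 with a fold change, FC, of at least 2 between WT compartments or 1.5 between *aadd* and WT resting). Between proliferative and resting cartilage, 3 of the 7 tested PCP genes met the criteria, all lower, where 5.53% of all genes did and 2.97% did so as lower. None passed an adjusted *P* of 0.05, which 0.622% of all genes passed, and 4 PCP genes had an unadjusted limma *P* under 0.05, as had 17.1% of all genes. Between hypertrophic and proliferative cartilage, 3 of 7 met the criteria, all lower, against 9.67% of all genes and 4.34% as lower. No gene of the table passed an adjusted *P* of 0.05 in limma there (0%), and an unadjusted *P* under 0.05 was reached by 3 PCP genes and by 2115 genes, or 19.3%, in all. That 0 became 1905 genes, with *Prickle1* and *Ror2* among them, without hypertrophic replicate 1, and 705 genes, again with these 2, when all 12 libraries entered 1 fit. Between hypertrophic and resting cartilage, 3 of 7 met the criteria, all lower, against 13% of all genes and 7.2% as lower, and *Ror1* and *Ror2* also passed an adjusted *P* of 0.05, against 6.36%. Only *Ror2* passed without the filter, with a replicate block, and without any 1 resting library or hypertrophic replicate 3. Between *aadd* and WT resting, 2 of 7 met the criteria, both lower, against 6.56% of all genes and 2.78% as lower. None passed an adjusted *P* of 0.05 in limma, against 0.119% of all genes, and the same 2 had an unadjusted *P* under 0.05, as had 9.58% of all genes. The median log2 fold changes of the 7 genes in these comparisons were -0.79, 0.35, -0.66 and -0.24, beside -0.06, 0.04, -0.02 and 0.01 over all genes tested. Of the 4 comparisons, 3 share the WT resting libraries, so that they are not independent of each other.

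The libraries of the groups did not overlap for 4 of the 7 tested PCP genes between proliferative and resting (24% of all genes tested), for 3 between hypertrophic and proliferative (24.2%), for 5 between hypertrophic and resting (32%) and for 2 between *aadd* and WT resting (15.4%). Over the 4 groups together, limma's F test gave an unadjusted *P* under 0.05 for all 7 tested PCP genes, where 31% of all genes did. *Ror2* (adjusted *P* = 0.0018), *Ror1* (adjusted *P* = 0.015), *Prickle1* (adjusted *P* = 0.019) and *Fat4* (adjusted *P* = 0.034) passed after adjustment, 4 of the 7 against 13.8% of all genes.

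**Figure D2:**
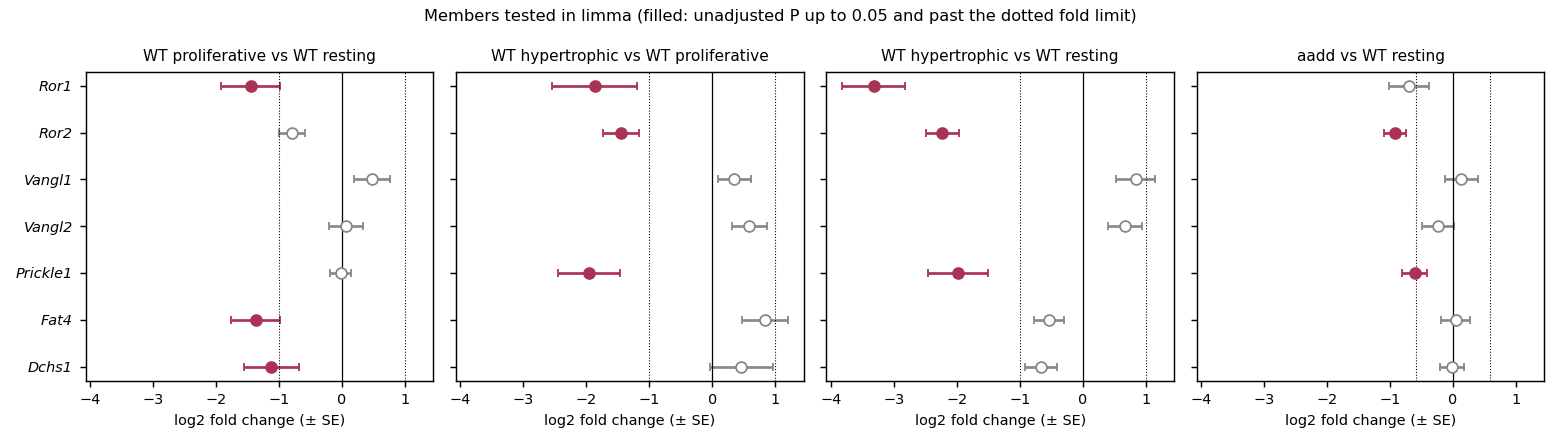
Log2 fold changes (x axis, on log2(NRPKM + 0.1)) of the 7 tested PCP genes in the 4 comparisons, with limma SE as bars, n = 3 libraries a group. Filled points meet the criteria of the study, whose fold limits are dotted, and all of them lie on the lower side. *Celsr1*, *Celsr2* and *Prickle2* did not pass the filter and are not shown. With no filter, their calls were all as higher.

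*Ror2* encodes a receptor tyrosine kinase-like protein that binds Wnt5a and is needed for the growth of limb skeletal elements. It was at 13.2, 11.2 and 10.8 NRPKM in WT resting, 8.33, 5.30 and 6.93 in proliferative, 3.44, 2.18 and 1.86 in hypertrophic and 7.16, 6.05 and 5.36 in *aadd*. The 3 WT compartments did not overlap, and *aadd* lay below every resting library and above every hypertrophic one, overlapping the proliferative range. *Ror2* was 4.71-fold lower in hypertrophic than in resting cartilage (log2 fold change -2.23, SE 0.26, limma adjusted *P* = 0.0089) and 2.73-fold lower than in proliferative cartilage (-1.45, SE 0.29, limma adjusted *P* = 0.13). The step from resting to proliferative had an FC of 1.73, below the limit of 2 (-0.79, SE 0.21, limma adjusted *P* = 0.18). In *aadd* it was 1.89-fold lower than in WT resting (-0.92, SE 0.18, limma adjusted *P* = 0.19). The hypertrophic values rest on about 22.1 to 32 reads a library.

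Markers of other cell types moved with this fall in 2 of the 3 hypertrophic libraries. Hypertrophic replicate 1, with an endothelial sum of 21.8 NRPKM and a cartilage sum of 3070 NRPKM that both lie within the range of the other groups, but low in *Mmp13* and *Spp1*, had *Ror2* at 3.44 NRPKM, below all 9 libraries outside the hypertrophic group. The part of endothelial, osteoclast or other RNA in the lower values of replicates 2 and 3 was not tested.

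*Ror1*, the paralogue of *Ror2* and also a Wnt5a receptor, was lower than *Ror2* in every library. It was at 5.06, 5.96 and 5.89 NRPKM in WT resting, 1.10, 1.60 and 4.43 in proliferative, 1.14, 0.194 and 0.421 in hypertrophic and 2.83, 5.78 and 2.45 in *aadd*. The resting libraries lay above all proliferative and hypertrophic ones, whereas proliferative and hypertrophic libraries overlapped and 1 *aadd* library reached the resting range. Proliferative replicate 3, at 4.43, had a skeletal muscle sum of 101 NRPKM against 17.6 and 10.7 in its group. Its perichondrium and fibroblast sum was 592 against 318 and 270. Without it the log2 fold change from resting to proliferative was -2. The part of other tissue in its *Ror1* value was not tested. *Ror1* was 9.96-fold lower in hypertrophic than in resting cartilage (-3.32, SE 0.5, limma adjusted *P* = 0.02). The adjusted *P* was 0.065 with a replicate block and 0.061 without the filter, which *Ror1* had passed mainly through the resting libraries, and ranged from 0.0012 to 0.094 over all alternatives. The size of this fall depends on the pseudocount and scaling, since the log2 fold change was -2.11 with a pseudocount of 1 and -2.55 after quantile normalization. It was 2.72-fold lower in proliferative than in resting cartilage (-1.45, SE 0.47, limma adjusted *P* = 0.22). The further step to hypertrophic, with an FC of 3.66 (-1.87, SE 0.68, limma adjusted *P* = 0.23), did not meet the criteria with the replicate block, where limma's adjusted *P* was 0.31 (range over all alternatives 0.054 to 0.54). Its log2 fold change was -1.01 with a pseudocount of 1 and -1.15 after quantile normalization. The difference between *aadd* and WT resting (-0.7, SE 0.32) did not meet the criteria (limma adjusted *P* = 0.57). About 3.61 to 15.3 reads stood behind each hypertrophic value, so that differences within that group were not resolved at this depth.

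*Prickle1* codes for a cytoplasmic core protein that works with Vangl on one face of the cell. It was at 44.9, 41.6 and 39.7 NRPKM in WT resting, 38.9, 48.9 and 37.2 in proliferative, 23.4, 7.61 and 6.56 in hypertrophic and 34.4, 22.2 and 27.0 in *aadd*. Resting and proliferative libraries overlapped, with means of 42.1 ± 2.65 and 41.7 ± 6.34 NRPKM (SD, n = 3), and all hypertrophic and *aadd* libraries lay below both. It was 3.9-fold lower in hypertrophic than in proliferative cartilage (-1.96, SE 0.49, limma adjusted *P* = 0.16) and 3.96-fold lower than in resting cartilage (-1.98, SE 0.48, limma adjusted *P* = 0.064). Hypertrophic replicate 1 was again the highest of its group and lay within the *aadd* range. In *aadd* the FC was 1.53 (-0.61, SE 0.2, limma adjusted *P* = 0.38), close to the limit of 1.5, and the call was lost without WT resting replicate 1 or without *aadd* replicate 2. The latter, the lowest *aadd* library for *Prickle1*, had the highest perichondrium and fibroblast sum of its group (721 NRPKM against 383 and 416), whose part in the result was not tested.

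**Figure D3:**
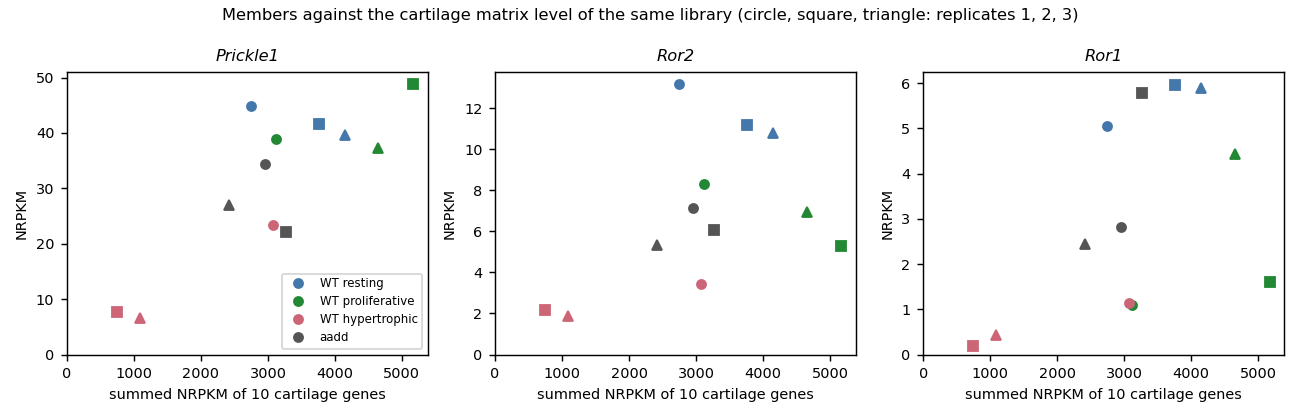
NRPKM of *Prickle1*, *Ror2* and *Ror1* (y axes) against the summed NRPKM of 10 cartilage matrix genes in the same library (x axis), 1 symbol a library. Hypertrophic replicates 2 and 3, at cartilage sums of 747 and 1090, hold the lowest values of *Prickle1* and *Ror2*, while hypertrophic replicate 1, at 3070, has *Ror2* at 3.44, below the other groups.

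Without hypertrophic replicate 1, the falls from resting to hypertrophic were larger, at -2.48 for *Ror2*, -3.87 for *Ror1* and -2.56 for *Prickle1* (log2 fold changes, limma adjusted *P* = 0.0012, 0.0012 and 0.001). Over all alternatives their adjusted *P* ranged from 5e-04 to 0.049, from 0.0012 to 0.094 and from 0.001 to 0.2, respectively. Across the 12 libraries the log2 levels of *Prickle1* and *Ror2* had a Pearson *r* of 0.885, those of *Ror1* and *Ror2* 0.857 and those of *Prickle1* and *Ror1* 0.763. These are descriptions only, since the libraries fall into groups and share differences in cell content.

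As these 3 genes had lower means in hypertrophic cartilage and *aadd* than in WT resting, the 250 bases before their RefSeq start sites are shown, with *Fat4*, which had no such difference in *aadd*, for comparison. The coordinates are of GRCm38.p6, the build that mm10 names: *Ror2* at chr13:53286125-53286374, minus strand, *Ror1* at chr4:100095541-100095790, plus strand, *Prickle1* at chr15:93595903-93596152, minus strand and *Fat4* at chr3:38886690-38886939, plus strand. Each runs 5′ to 3′ and ends just before the start site. Capitals mark letters of the motifs searched on both strands, the GC box GGGCGG, the TATA box TATAAA, the Runx motif TGTGGT and the Tcf/Lef motif CTTTGA.
Ror2: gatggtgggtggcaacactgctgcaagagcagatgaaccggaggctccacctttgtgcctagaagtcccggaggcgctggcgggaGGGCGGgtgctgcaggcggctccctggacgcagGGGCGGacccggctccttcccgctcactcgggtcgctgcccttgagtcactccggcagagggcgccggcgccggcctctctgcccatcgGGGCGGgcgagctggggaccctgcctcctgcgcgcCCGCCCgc
Ror1: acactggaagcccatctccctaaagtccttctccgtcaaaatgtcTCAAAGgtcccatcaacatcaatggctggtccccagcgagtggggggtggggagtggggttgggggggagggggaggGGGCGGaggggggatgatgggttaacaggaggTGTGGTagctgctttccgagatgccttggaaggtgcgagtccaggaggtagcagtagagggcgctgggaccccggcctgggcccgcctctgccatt
Prickle1: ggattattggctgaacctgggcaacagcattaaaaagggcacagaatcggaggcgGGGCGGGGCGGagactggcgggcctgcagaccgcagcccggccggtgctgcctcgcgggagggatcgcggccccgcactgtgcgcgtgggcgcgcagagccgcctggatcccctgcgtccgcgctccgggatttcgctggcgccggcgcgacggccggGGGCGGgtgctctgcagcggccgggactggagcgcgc
Fat4: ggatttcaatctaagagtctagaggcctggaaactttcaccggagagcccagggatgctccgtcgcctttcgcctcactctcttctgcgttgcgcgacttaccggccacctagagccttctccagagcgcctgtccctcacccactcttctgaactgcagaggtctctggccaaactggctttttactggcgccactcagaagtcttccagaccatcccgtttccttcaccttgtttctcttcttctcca

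The *Ror2* window held 4 GC boxes, that of *Prickle1* 3, of which some share letters, and that of *Ror1* 1. A GC box was present in 32.7% of all 32851 promoter windows of this length. *Ror1* also held 1 Runx and 1 Tcf/Lef motif, which occurred in 14% and 13.8% of all windows. The TATA box, present in 12.4%, was in none of the 4 windows, and *Fat4* held none of the 4 motifs. GC content was 73.2% for *Ror2*, 74% for *Prickle1*, 62.4% for *Ror1* and 54.8% for *Fat4*, with a median of 52.4% over all windows. These matches describe the letters of the windows and were not linked to binding or to the expression values. *Prickle1* has a further RefSeq start site 76371 bases from the start of its row, which is not shown.

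*Vangl1* and *Vangl2* encode membrane proteins that are the partners of Prickle in the core complex. *Vangl1* was at 4.50, 7.24 and 3.84 NRPKM in WT resting, 8.66, 6.81 and 5.89 in proliferative, 6.80, 11.2 and 9.63 in hypertrophic and 5.75, 4.71 and 6.02 in *aadd*. *Vangl2* was at 6.09, 4.68 and 3.72 in WT resting, 5.45, 3.73 and 6.09 in proliferative, 8.69, 5.72 and 8.71 in hypertrophic and 5.35, 3.22 and 3.69 in *aadd*. For both genes the hypertrophic mean was the highest, and neighbouring groups in the order of means overlapped throughout. Between hypertrophic and resting cartilage the log2 fold changes were 0.84 for *Vangl1* (SE 0.31, limma adjusted *P* = 0.15) and 0.67 for *Vangl2* (SE 0.27, limma adjusted *P* = 0.18), both under the fold limit of 2. *Vangl1* met it without WT resting replicate 2 or without hypertrophic replicate 1 (1.04, limma adjusted *P* = 0.058). In *aadd* neither differed detectably from WT resting, with log2 fold changes of 0.13 (SE 0.26) and -0.24 (SE 0.26). The summed level of the pair was 7.55 to 14.1 NRPKM in the libraries outside the hypertrophic group, and every hypertrophic library was above that range, up to 18.3. The share of *Vangl2* in that sum overlapped between all groups, at 33.8 to 57.5%.

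*Celsr1* and *Celsr2* encode large cadherins that bridge neighbouring cells in the core complex, and both were low. *Celsr1* was at 0.583, 1.30 and 0.459 NRPKM in WT resting, 1.49, 0.925 and 0.547 in proliferative, 2.47, 3.16 and 4.24 in hypertrophic and 0.983, 0.789 and 1.18 in *aadd*. All 3 hypertrophic libraries lay above the 9 others, among which the groups overlapped. With every detected gene tested and no filter, *Celsr1* met the criteria as higher in hypertrophic than in proliferative cartilage (log2 fold change 1.7, SE 0.42, limma adjusted *P* = 0.28) and than in resting cartilage (2.03, SE 0.43, limma adjusted *P* = 0.11), where 9.42% and 12.5% of genes met them. The endothelial sums of these libraries were 21.8, 303 and 210 NRPKM, and markers of the epidermis, a known site of *Celsr1* expression, summed to 13.9 to 17.1 NRPKM in hypertrophic and 8.54 to 176 in resting libraries. The part of either in the result was not tested.

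*Celsr2* showed another pattern. It was at 0.493, 2.30 and 0.969 NRPKM in WT resting, 0.421, 0.912 and 0.146 in proliferative, 0.354, 0.822 and 0.896 in hypertrophic and 2.82, 3.74 and 2.62 in *aadd*, so that all mutant libraries were above all WT libraries. Without a filter it met the criteria as higher in *aadd* than in WT resting (1.44, SE 0.54, limma adjusted *P* = 0.75), as did 5.82% of genes. Between 2.92 and 18.5 reads stood behind the proliferative values and 79.4 to 87.1 behind the mutant ones. WT resting replicate 2, the highest WT library for *Celsr2*, also had the highest sum of epidermal genes (176 NRPKM, against 5.84 to 25.7 elsewhere). The *aadd* sums were 5.84 to 7.22. The part of epidermal RNA in these values was not tested.

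The Celsr pair was also described by shares. *Celsr1* made up 32.1 to 54.2% of the summed NRPKM of the pair in WT resting, 50.4 to 78.9% in proliferative, 79.4 to 87.5% in hypertrophic and 17.4 to 31.1% in *aadd*. The *aadd* libraries were below, and the hypertrophic ones above, all other libraries. These shares were computed with the levels known and were not tested.

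**Figure D4:**
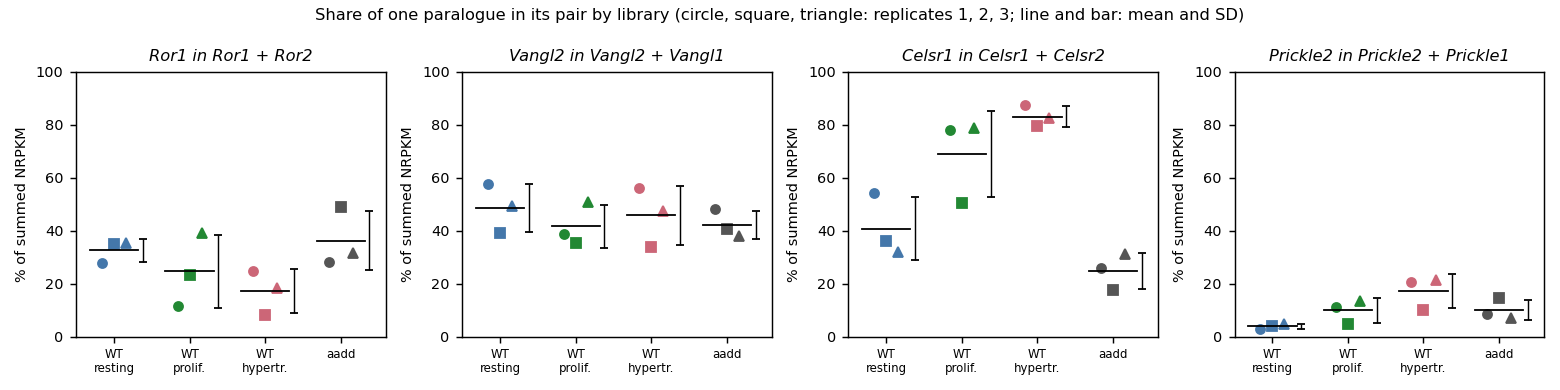
Share of 1 paralogue in the summed NRPKM of its pair (y axis, percent) by group (x axis), 1 symbol a library, with group mean and SD (n = 3). The *Celsr1* share is 79.4 to 87.5% in hypertrophic and 17.4 to 31.1% in *aadd* libraries, while the *Vangl2* share overlaps between all groups.

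*Prickle2*, a paralogue of *Prickle1*, was a minor part of its pair, at 2.94 to 4.74% in WT resting and 4.67 to 21.4% elsewhere. It was at 1.36, 1.77 and 1.98 NRPKM in WT resting, 4.96, 2.40 and 5.83 in proliferative, 6.03, 0.836 and 1.78 in hypertrophic and 3.23, 3.77 and 2.03 in *aadd*. The resting libraries were below all proliferative and all *aadd* ones, and the hypertrophic libraries spread across the whole range, with replicate 1 highest. Without a filter *Prickle2* met the criteria as higher in proliferative than in resting cartilage (1.24, SE 0.39, limma adjusted *P* = 0.39), as did 7.26% of genes. The difference between *aadd* and WT resting (0.76, SE 0.31, limma adjusted *P* = 0.75) did not meet them. In the Ror pair, *Ror1* made up 27.7 to 35.2% in WT resting and 28.3 to 48.9% in *aadd*, both above the 8.16 to 24.9% of the hypertrophic libraries, and the proliferative range of 11.7 to 39% overlapped all of these.

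*Fat4* encodes a giant atypical cadherin that acts as the receptor of the Fat and Dachsous system. It was at 53.8, 40.4 and 31.1 NRPKM in WT resting, 24.3, 9.15 and 17.5 in proliferative, 25.8, 28.9 and 30.1 in hypertrophic and 42.0, 38.4 and 45.4 in *aadd*. The proliferative libraries were the lowest, the hypertrophic ones lay between them and resting without overlap, and *aadd* overlapped resting. *Fat4* was 2.58-fold lower in proliferative than in resting cartilage (-1.37, SE 0.39, limma adjusted *P* = 0.19). From proliferative to hypertrophic the log2 fold change was 0.84 (SE 0.36, limma adjusted *P* = 0.27), and between *aadd* and WT resting it was 0.04 (SE 0.23, limma adjusted *P* = 0.97). About 282 to 2560 reads a library stood behind *Fat4*.

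*Dchs1*, which encodes the cadherin ligand of Fat4, had the same order of WT compartment means. It was at 29.0, 26.4 and 26.8 NRPKM in WT resting, 19.2, 5.94 and 17.3 in proliferative, 12.3, 20.2 and 20.9 in hypertrophic and 27.4, 33.4 and 22.2 in *aadd*. All proliferative and hypertrophic libraries were below the resting ones, and these overlapped each other, as did *aadd* and resting. *Dchs1* was 2.17-fold lower in proliferative than in resting cartilage (-1.12, SE 0.44, limma adjusted *P* = 0.28), and between hypertrophic and resting cartilage the log2 fold change was -0.66 (SE 0.25, limma adjusted *P* = 0.16), under the fold limit. Its exons share 648 of 11052 bases with *Gm15645* on the other strand (12.6 to 23.1 NRPKM over the libraries), and reads of these genes cannot be told apart there without strand.

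Proliferative replicate 2 had the lowest value of its group for both cadherin genes. Without it the fold changes were -0.98 for *Fat4* and -0.58 for *Dchs1* (limma adjusted *P* = 0.29 and 0.28), and neither reached an FC of 2. The difference of *Dchs1* between hypertrophic and proliferative cartilage then turned from 0.46 to -0.08, so that the order of these compartments rests on that library. Proliferative replicate 2 also had the lowest perichondrium and fibroblast sum of its group, 270 NRPKM against 318 and 592, though not for each gene of that list. Its cartilage sum was the highest of the group, at 5170 against 3120 and 4650. The part of cell content in these values was not tested. The ratio of *Fat4* to *Dchs1* overlapped between all groups, at 1.16 to 1.86 in WT resting, 1.01 to 1.54 in proliferative, 1.43 to 2.1 in hypertrophic and 1.15 to 2.05 in *aadd*. Across the 12 libraries the log2 levels of the pair had a Pearson *r* of 0.883, given as a description.

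The other genes of the pathway were taken from a list of 34 ligands, coreceptors, core proteins, Fat and Dachsous genes and effectors, of which 33 were in the table and 27 passed the filter. In all, 10 met the criteria in at least 1 comparison. Between proliferative and resting cartilage 2 were higher and 0 lower in limma, against 2.56% and 2.97% of all genes. Between hypertrophic and proliferative cartilage 3 were higher and 1 lower, against 5.32% and 4.34%. Between hypertrophic and resting cartilage 5 were higher and 2 lower, against 5.84% and 7.2%. Of the genes called higher in hypertrophic cartilage, *Ankrd6* and *Wnt5b* reached 5 NRPKM only in hypertrophic libraries. *Fat3* did so only in hypertrophic and proliferative ones. The rises of these genes were thus bound up with their selection by the filter. Between *aadd* and WT resting 1 was higher and 2 were lower, against 3.78% and 2.78%. The higher gene, *Fzd6*, reached 5 NRPKM only in the *aadd* libraries and in WT resting replicate 2. *Ankrd6*, among the lower ones, was at only 0.812 to 0.997 NRPKM in *aadd* and 1.66 to 2.38 in WT resting. The counts describe the genes that could be tested and are no support for a trend in the list. An unadjusted limma *P* under 0.05 was reached by 8, 10, 11 and 5 of the 27 in these comparisons, beside 17.1%, 19.3%, 26.4% and 9.58% of all genes.

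*Wnt5a*, the ligand of the Ror receptors, was at 10.9, 4.98 and 5.74 NRPKM in WT resting, 30.4, 14.0 and 18.6 in proliferative, 42.0, 20.5 and 25.7 in hypertrophic and 10.2, 6.87 and 6.33 in *aadd*. It was 2.9-fold higher in proliferative (log2 fold change 1.54, SE 0.39, limma adjusted *P* = 0.16) and 4.09-fold higher in hypertrophic than in resting cartilage (2.03, SE 0.39, limma adjusted *P* = 0.038). The ratio of *Wnt5a* to *Ror2*, computed after both levels had been seen and not tested, was 0.446 to 0.824 in WT resting, 1.14 to 1.42 in *aadd*, 2.63 to 3.64 in proliferative and 9.4 to 13.8 in hypertrophic libraries. No group overlapped another in this ratio. *Wnt5b*, a related ligand, was at 1.76, 0.664 and 2.55 NRPKM in WT resting and at 5.64, 5.26 and 5.84 in hypertrophic libraries (1.87, SE 0.45, limma adjusted *P* = 0.063).

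The glypicans, cell surface proteoglycans that modulate Wnt signalling, went in both directions. *Gpc6* was at 77.4, 91.3 and 86.5 NRPKM in WT resting, 52.4, 67.3 and 46.9 in proliferative and 38.3, 13.9 and 14.6 in hypertrophic libraries, 4.27-fold lower in hypertrophic than in resting cartilage (-2.1, SE 0.41, limma adjusted *P* = 0.038) and 2.76-fold lower than in proliferative cartilage (limma adjusted *P* = 0.18). The lowest values were those of hypertrophic replicates 2 and 3, the libraries with low cartilage sums and more RNA of other cells. The part of cell content in this fall was not tested. *Gpc4* was at 17.2, 14.2 and 13.3 in WT resting and 30.8, 27.1 and 35.3 in hypertrophic libraries (1.05, SE 0.19, limma adjusted *P* = 0.032). *Ptk7*, a Wnt coreceptor of the PCP pathway, was at 15.0, 15.1 and 13.9 in WT resting and 11.9, 9.40 and 7.68 in *aadd* (-0.62, SE 0.2, limma adjusted *P* = 0.38).

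*Fat3*, a relative of *Fat4*, had the largest rise among the tested genes of the list from resting to hypertrophic cartilage. It was at 2.83, 1.30 and 2.44 NRPKM in WT resting, 5.70, 2.80 and 6.39 in proliferative and 14.6, 17.2 and 21.3 in hypertrophic libraries, 8.05-fold higher in hypertrophic than in resting cartilage (3.01, SE 0.32, limma adjusted *P* = 0.0068). It also met the criteria as higher in proliferative than in resting cartilage (1.13, SE 0.41, limma adjusted *P* = 0.25), although 1 library overlapped, and in hypertrophic than in proliferative cartilage (1.88, SE 0.35, limma adjusted *P* = 0.12). *Ankrd6*, the homologue of the fly core gene *diego*, was at 2.38, 1.91 and 1.66 in WT resting, 5.38, 7.71 and 12.9 in hypertrophic and 0.997, 0.812 and 0.984 in *aadd* libraries. It was thus higher in hypertrophic than in resting cartilage (2, SE 0.34, limma adjusted *P* = 0.028) and than in proliferative cartilage (2.54, SE 0.63, limma adjusted *P* = 0.16), and 2.01-fold lower in *aadd* than in WT resting (-1.01, SE 0.19, limma adjusted *P* = 0.18).

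*Fzd6*, a Frizzled of the core complex, was at 1.31, 5.61 and 3.34 NRPKM in WT resting and 8.05, 9.77 and 9.09 in *aadd* (1.58, SE 0.47, limma adjusted *P* = 0.35). The highest of the resting libraries was again replicate 2, the library with the most epidermal RNA. The *aadd* libraries, higher in *Fzd6*, had epidermal sums of only 5.84 to 7.22 NRPKM. The part of epidermal RNA in these values was not tested. *Smurf1*, a ubiquitin ligase that acts on Prickle, was at 6.58, 4.29 and 5.88 in proliferative and 9.61, 12.5 and 13.9 in hypertrophic libraries (1.09, SE 0.24, limma adjusted *P* = 0.15). In WT resting it was at 11.1, 10.2 and 9.33, above all proliferative libraries. Hypertrophic and resting libraries overlapped (0.22, SE 0.2, limma adjusted *P* = 0.53). *Daam2*, a formin that binds Dishevelled, was at 36.2, 39.3 and 33.3 in WT resting and 27.9, 7.88 and 8.36 in hypertrophic libraries (-1.55, SE 0.49, limma adjusted *P* = 0.11). Its lowest values too were those of hypertrophic replicates 2 and 3, and the part of cell content was not tested. The other 17 tested genes of the list, the 3 Dishevelled genes among them, met the criteria in no comparison.

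**Figure D5:**
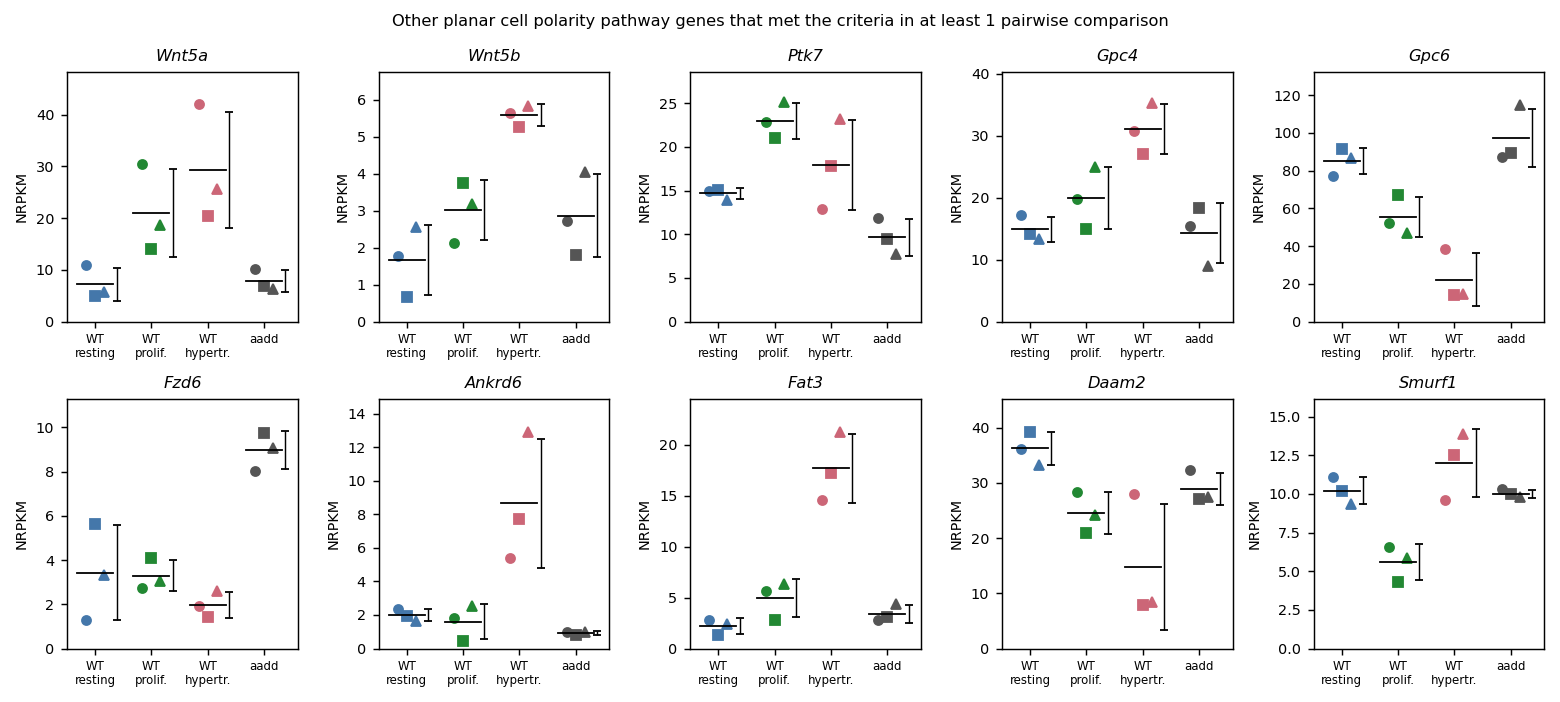
Expression in NRPKM (y axis, from 0) of the 10 further pathway genes that met the criteria in at least 1 comparison, by group (x axis), 1 symbol a library, with group mean and SD (n = 3). *Wnt5a*, *Fat3* and *Gpc4* rise from WT resting to hypertrophic while *Gpc6* falls from 77.4 to 91.3 to 13.9 to 38.3.

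The genes whose log2 levels were most like those of the called PCP genes over the 12 libraries are given by Pearson *r*, as a description. For *Prickle1* they were *Efcab1* (0.976), *Tiam1* (0.974) and *Kif26b* (0.972), and for *Ror2* *Kcns1* (0.959), *Auts2* (0.951) and *Bcl9* (0.95). For *Ror1* they were *Nfix* (0.959), *Mir377* (0.958) and *Agbl5* (0.954). For *Fat4* they were *Gng12* (0.951), *Lats2* (0.944) and *Ctps2* (0.941), and for *Dchs1* *Caskin2* (0.956), *Zfp423* (0.956) and *Itga9* (0.95). No gene appeared in more than 1 of these lists.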

How the data were processed

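RNA from LCM chondrocytes was amplified with a NuGEN kit, made into Nextera libraries and sequenced on an Illumina HiSeq. Per the labels, the submitters' processing notes name mm10 and TopHat. Reads of low quality, with several alignments or duplicated had been removed by the authors, whose deposited values are RPKM from GeneSpring, normalized between libraries (NRPKM). How libraries were scaled and whether strand was used is not given in the sources used here. The deposited table holds no counts. Depth was estimated from 1747 single-exon receptor and keratin-associated genes. Their most frequent value above 0 of NRPKM times gene length was taken as 1 read (0.309 to 0.53 NRPKM per read per kilobase). Reads of the PCP genes were then estimated with GENCODE exon lengths. Reads behind a value are estimates.

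The genes described, the pathway list and the marker lists were chosen with earlier results of these data known. The text names all 10 members, the pathway genes called in at least 1 pairwise comparison, and for each called member the 3 genes with the highest Pearson *r* to it. *Fat4* was chosen as the promoter for comparison, and the 4 motifs were chosen, after the values had been seen. Log2(NRPKM + 0.1) values were fitted in limma 3.58.1 (R 4.3.3) with the 6 libraries of each pair, or all 12 for the F test, and Benjamini-Hochberg adjustment over 10936 genes. Fold changes are on this scale, which understates those of low genes. The scripts were tested on simulated data. Exact tests of 3 against 3 libraries cannot go below *P* = 0.1 and were not used. The study describes its 3 sets of samples as independent.

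Replicates are numbered 1 to 3 in each group. For libraries with the same number, the distances from the group means correlated across genes at *r* = 0.281, 0.179 and 0.198 between WT resting and proliferative, and not all above 0.1 for any other pair of groups. No label gives a shared origin. Fits with the number as a block are given where they change a call. RefSeq promoter windows (GRCm38.p6) were matched by symbol for 7 of the 10 members.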

Additional observations from a re-analysis of the deposited data

How the results depend on the processing

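Results were recomputed with each library left out in turn, with a replicate block, with all 12 libraries in 1 fit, without the filter, with a pseudocount of 1 and with the libraries rescaled by quantile normalization or by the median of ratios. Of the member fold changes recomputed, 301 kept direction and call, 19 lost the call, 4 gained it and 12 changed sign, all 12 of them among changes that did not meet the criteria. The falls of *Ror1*, *Ror2* and *Prickle1* from resting to hypertrophic, of *Ror2* and *Prickle1* from proliferative to hypertrophic, and of *Ror2* in *aadd* met the criteria in every alternative.

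Between proliferative and resting, the count of members called was 0 to 3 with 1 library left out, 1 without WT resting replicate 2 and 0 without WT proliferative replicate 2. The pathway count was 1 with a pseudocount of 1 and 1 to 3 with 1 library left out. Between *aadd* and WT resting, 1 member was called with all 12 libraries in 1 fit, 1 to 2 with a library left out. The pathway count there was 2 with a pseudocount of 1 and with all 12 libraries in 1 fit, and 3 to 5 with a library left out (5 without WT resting replicate 1 or replicate 3). The F test gave 4 to 7 members, with 4 without WT resting replicate 3, hypertrophic replicate 3, *aadd* replicate 2 or *aadd* replicate 3. *Dchs1* lost its call from resting to proliferative without a filter, without any 1 of the resting libraries and without proliferative replicate 2. *Ror1* lost it there under quantile normalization and without resting replicate 2 or proliferative replicate 1 or 2, and between proliferative and hypertrophic under quantile normalization, with the block and without proliferative replicate 2 or 3 or hypertrophic replicate 2 or 3. *Prickle1* lost its call in *aadd* also with all 12 libraries in 1 fit. The cause was not tested.

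Signs changed for small differences. From resting to proliferative, *Prickle1* was at 0.02 with the median of ratios and at -0.14 to 0.05 with a library left out, and *Vangl2* at -0.10 to 0.28. *Dchs1* was at -0.08 to 0.76 from proliferative to hypertrophic. In *aadd*, *Dchs1* was at -0.15 to 0.14, *Vangl1* at -0.06 to 0.39 and *Fat4* at -0.16 to 0.24. In the fit with the replicate block, 3, 2, 3 and 2 members were called in the 4 comparisons and 5 in the F test. It moved no member's call other than those of *Ror1* given above, apart from the F test, where 5 rather than 7 passed. Between hypertrophic and proliferative, 2 members passed an adjusted *P* of 0.05 without hypertrophic replicate 1 (with 1905 genes in all) and with all 12 libraries in 1 fit (with 705), and 0 in the pairwise fit with every library. Between hypertrophic and resting, 1 to 3 members passed it. Quantile normalization raised the share of higher calls between proliferative and resting from 46.3% to 58.5%. Low values limit *Ror1* in hypertrophic libraries and *Celsr2* throughout.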
